A study of Mus musculus with 12 samples.

Results

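MHC class II molecules carry peptides from engulfed material to the cell surface, where CD4 T cells read them. The alpha and beta chains pair in the endoplasmic reticulum around the invariant chain, which blocks the groove and steers the complex to endosomes, where proteases degrade it and the DM dimer exchanges the last fragment of it for a peptide. Genes of class II chains, the invariant chain and DM are known for a promoter module that RFX, CREB and NF-Y proteins bind and that works once the coactivator CIITA joins them, and interferon-gamma is the classic inducer of CIITA. In peripheral ganglia, resident macrophages are a main carrier of class II, and dendritic cells and B cells carry it wherever they are present.

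The 7 genes described here were taken by symbol from the count files, which list 44345 genes: H2-Aa, H2-Ab1 and H2-Eb1, which encode class II chains, H2-DMa and H2-DMb1, the chains of the DM dimer, Cd74, the invariant chain, and Ciita, the coactivator. All 7 were present and passed the filter on low counts. They were measured in L4 to L6 dorsal root ganglia, which hold sensory neurons with their glia, vessels and immune cells, of C57BL/6 mice aged 6 to 8 weeks. All mice had the dorsal columns of the spinal cord cut 24 h earlier, so no uninjured ganglia enter the comparison. MS275, also called entinostat, which inhibits histone deacetylases of class I, was given into the peritoneum at 12 mg/kg to the one group and its vehicle (Tween80, PEG300 and DMSO) to the other, at injury and 2 h before the ganglia were taken. RNA was read from 3 MS275 libraries and 3 vehicle libraries, and every library pooled the ganglia of 2 mice. ATAC-seq, in which a transposase cuts accessible DNA, used 3 mice per treatment, for which 1 combined list of open regions per treatment was analysed.

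RNA libraries held 34992533 to 56542966 reads assigned to genes under MS275 and 39148369 to 60370523 under vehicle. Sensory neuron markers summed to 10634 to 11541 reads per 1000000 assigned reads (CPM) with MS275 and 10492 to 10676 CPM with vehicle, so transcripts that mark the labelled tissue were abundant in all 6 libraries. MS275 replicate 1 stood apart from the others. Its skeletal muscle markers summed to 614.1 CPM, against 83.5 and 94.3 CPM in the other MS275 libraries and 7.67 to 55.5 CPM in vehicle libraries. Its neutrophil markers summed to 256.3 CPM, against 45.1 and 76.9 CPM in the other MS275 libraries and 42.2 to 68.8 CPM in vehicle libraries. Values are therefore also given without that library. The muscle sums of the other MS275 libraries also lay above those of all vehicle libraries, so leaving it out does not remove that difference.

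The promoter letters of some of these genes can be read. RefSeq promoter sequences (build GRCm38.p6, 250 bases before to 50 after a start) matched 4 of the 7 genes, H2-Aa, H2-Eb1, H2-DMa and H2-DMb1, and 4 of 5 other class II loci. The stretches below are those in which a pair of motifs of the class II module was found, in 3 of the 7 genes (H2-Aa, H2-Eb1 and H2-DMb1) and in 2 other loci, 5′ to 3′ on the strand of the gene. Capitals mark the Y box (TGATTGG, an inverted CCAAT sequence of the kind NF-Y binds), and before it either the X box core (AAC, any pair of bases, ATGATG) or, in H2-Aa, a cAMP response element (TGACGTCA, the kind CREB binds).
H2-Aa: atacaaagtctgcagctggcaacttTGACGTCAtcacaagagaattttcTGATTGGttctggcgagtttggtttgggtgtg
H2-Eb1: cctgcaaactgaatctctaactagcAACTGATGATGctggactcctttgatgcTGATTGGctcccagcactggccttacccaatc
H2-DMb1: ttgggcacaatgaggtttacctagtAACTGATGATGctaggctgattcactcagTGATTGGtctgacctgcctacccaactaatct
H2-DMb2: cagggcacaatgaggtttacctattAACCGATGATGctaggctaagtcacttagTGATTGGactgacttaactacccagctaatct
H2-Ob: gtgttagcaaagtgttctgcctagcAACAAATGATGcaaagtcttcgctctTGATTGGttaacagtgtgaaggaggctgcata

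The H2-Aa stretch lies at chr17:34287842-34287922 on the minus strand, and the other 4 are on the plus strand: H2-Eb1 at chr17:34305753-34305837, H2-DMb1 at chr17:34153074-34153159, H2-DMb2 at chr17:34145103-34145188 and H2-Ob at chr17:34238795-34238877. Counted back from the base before the start, the Y box begins at position -50 in H2-Aa, -61 in H2-Eb1, -63 in H2-DMb1, -92 in H2-DMb2 and -59 in H2-Ob. The gap between the motifs is 15 to 18 bases in all 5. The motifs were spelled after these promoters had been read, so their presence in them is a description. On either strand, the Y box letters occur in 7.82% of 32851 promoters, the X box core in 0.137% and the cAMP response element in 1.79%. An X box core followed on the same strand by a Y box after a gap of 10 to 40 bases occurs in 4 of the 32851, which are H2-Eb1, H2-DMb1, H2-DMb2 and H2-Ob. A cAMP response element placed likewise occurs in 8, one of them H2-Aa. Of the other promoters read, those of H2-Oa and H2-Eb2 held the Y box letters alone, and the 2 promoter entries of H2-DMa held none of the 3 motifs. These entries have their starts at 34122832 and 34125518, and the open region over the first also lies on the neighbouring gene Brd2. Sequence at any other start of H2-DMa was not read, so the module may be there or not.

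The RNA comparison asked how the class II transcripts of axotomised mice changed when MS275 took the place of vehicle. With MS275 the 3 class II chain genes, the invariant chain and the alpha chain of DM rose, by 1.28-fold to 1.47-fold. The beta chain of DM and Ciita did not pass the test. Of the 7 genes, 5 rose and 0 fell in edgeR's quasi-likelihood test (adjusted p under 0.05 over 16819 genes), where 5.1% of all genes tested were called higher and 5.89% lower. Fewer cells of a type and less RNA per cell cannot be told apart in these pooled ganglia, nor can more of either.

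H2-Aa, the alpha chain of the I-A molecule, had 36.9, 24.9 and 27.4 CPM in MS275 replicates 1, 2 and 3, against 19.6, 19.9 and 21.3 CPM in vehicle replicates 1, 2 and 3. All MS275 libraries lay above all vehicle libraries, and MS275 replicate 1 was well above the other MS275 libraries. The log2 fold change was 0.55 (SE 0.13, adjusted p = 0.0267 in edgeR). H2-Ab1, the beta chain of I-A, had 33.4, 23.0 and 24.6 CPM with MS275, against 18.4, 17.7 and 20.2 CPM with vehicle, again without overlap (0.53, SE 0.13, adjusted p = 0.032 in edgeR). The partner chains kept their proportion: H2-Aa reads per H2-Ab1 read numbered 1.10 ± 0.016 with MS275 and 1.08 ± 0.039 with vehicle (SD, n = 3 each, not corrected for length).

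H2-Eb1, the beta chain of the I-E molecule, had 32.2, 23.6 and 27.5 CPM with MS275, against 18.7, 19.6 and 21.0 CPM with vehicle. The groups did not overlap, and the log2 fold change was 0.49 (SE 0.11, adjusted p = 0.0213 in edgeR). C57BL/6 mice are known to lack the alpha chain of I-E, so this beta chain transcript has no partner chain to form I-E. The row of that alpha chain, H2-Ea-ps, was listed at 0 counts in all 6 libraries.

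Cd74, the invariant chain that escorts class II through the cell, had 70.1, 45.9 and 51.0 CPM with MS275, against 37.4, 38.1 and 41.98 CPM with vehicle. The lowest MS275 library was above the highest vehicle library, by a small margin (log2 fold change 0.51, SE 0.13, adjusted p = 0.0408 in edgeR). DESeq2 gave the same fold change with adjusted p = 0.0605, the alternative tool that ended this call. Cd74 reads per read of the 3 class II chain genes numbered 0.656 ± 0.024 with MS275 and 0.665 ± 0.0068 with vehicle (SD, n = 3 each), so that invariant chain and class II chains rose by like factors.

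Of the chains of DM, which loads peptide onto class II, the alpha chain was called and the beta chain was not. The difference between their fold changes was not tested. Their 95% intervals overlap, at 0.18 to 0.54 for H2-DMa and -0.39 to 0.21 for H2-DMb1. H2-DMa had 18.9, 20.6 and 21.6 CPM with MS275, against 17.2, 14.8 and 15.8 CPM with vehicle, with no overlap between groups (log2 fold change 0.36, SE 0.080, adjusted p = 0.0243 in edgeR). Here MS275 replicate 1 was the lowest of the MS275 libraries, whereas it was the highest for H2-Aa, H2-Ab1, H2-Eb1, Cd74 and Ciita. H2-DMb1 had 5.94, 5.79 and 6.37 CPM with MS275, against 7.81, 5.83 and 5.65 CPM with vehicle. These ranges overlapped, with a log2 fold change of -0.09 (95% interval -0.39 to 0.21, adjusted p = 0.689 in edgeR). The sign rested on vehicle replicate 1, without which the log2 fold change was 0.07 (adjusted p = 0.763 in edgeR).

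H2-DMa reads per H2-DMb1 read numbered 3.19, 3.56 and 3.40 in the MS275 libraries, against 2.20, 2.53 and 2.79 in the vehicle libraries, with no overlap. H2-DMb1 reads per H2-Ab1 read numbered 0.178, 0.252 and 0.259 with MS275, against 0.424, 0.330 and 0.280 with vehicle, also with no overlap. These ratios were not tested, and they are not corrected for length. They restate the rises of H2-DMa and H2-Ab1 beside H2-DMb1 levels that overlapped, so they are no separate results. H2-DMb1 has a close copy beside it, H2-DMb2, and 12.39% to 14.07% of reads in each library were set aside as not uniquely aligned, so its count is uncertain. The H2-DMa record runs into the neighbouring gene Brd2, and how reads of that overlap were assigned is not known.

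Ciita, the coactivator on which class II transcription depends, was the least certain of the 7. Its 6 libraries held 95, 48 and 43 reads with MS275 and 43, 66 and 31 reads with vehicle, or 1.99, 0.874 and 1.25 CPM with MS275 against 0.941, 1.08 and 0.782 CPM with vehicle. The groups overlapped, and the fitted log2 fold change of 0.54 had a 95% interval of -0.15 to 1.22 (adjusted p = 0.279 in edgeR). Without MS275 replicate 1 it was 0.14 (adjusted p = 0.774 in edgeR). With these libraries a change of Ciita as large as that of its target genes could be neither shown nor set aside, since its interval holds all their estimates.

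**Figure D1:**
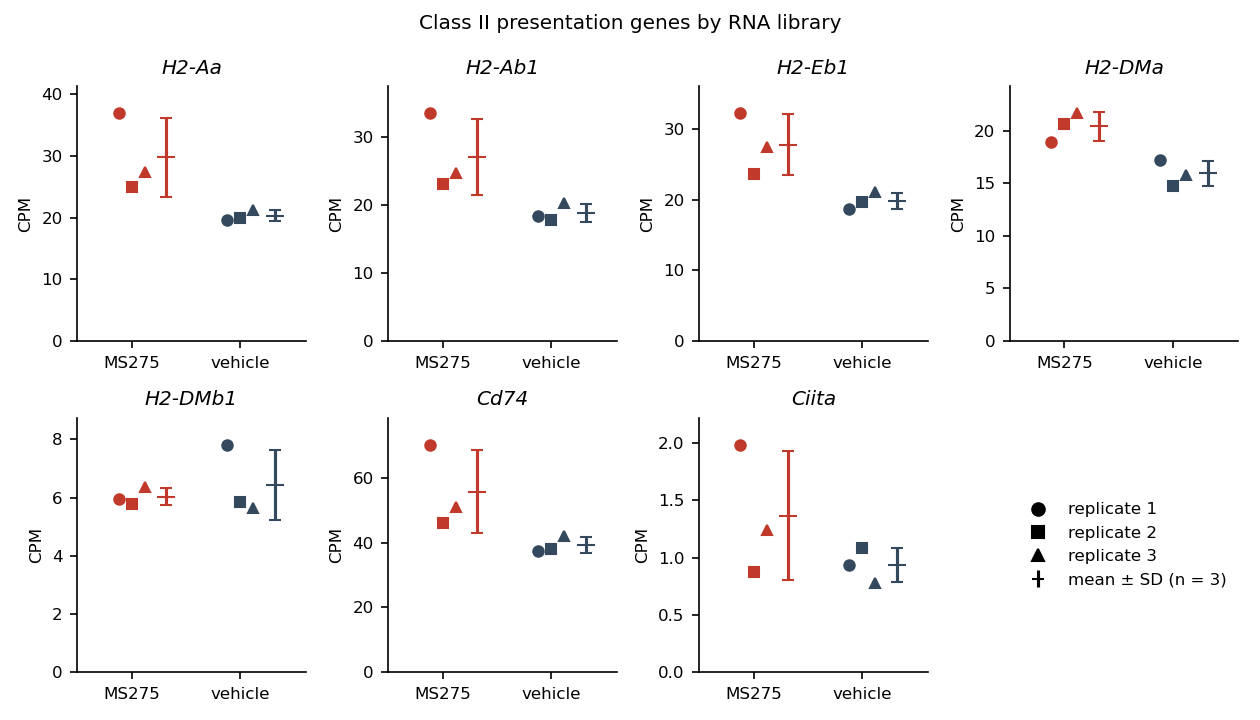
Level of each of the 7 genes in CPM (vertical axes, each from 0) in the 3 MS275 and 3 vehicle RNA libraries, with symbols for the replicate and bars for the mean ± SD (n = 3). H2-Aa, H2-Ab1, H2-Eb1, H2-DMa and Cd74 lie higher in every MS275 library than in every vehicle library, while H2-DMb1 and Ciita overlap between the groups.

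Separation of the groups was not rare in these data: 15.9% of all genes tested had all MS275 libraries above all vehicle libraries, as did 5 of the 7 class II genes. In 17.9% of all genes tested, all MS275 libraries lay below all vehicle libraries. The median log2 fold change of the 7 was 0.51, against 0.002 for all genes tested. Without MS275 replicate 1, the library rich in muscle and neutrophil transcripts, the same 5 genes still passed, with smaller log2 fold changes for 4 of them (0.31 to 0.37 for H2-Aa, H2-Ab1, H2-Eb1 and Cd74) and 0.41 for H2-DMa. They also passed without MS275 replicate 2. None of the 5 passed over all genes in edgeR without MS275 replicate 3 or without vehicle replicate 1, 2 or 3. In these 4 fits log2 fold changes were 0.30 to 0.61, adjusted p was 0.0501 to 0.148, and all 5 had an unadjusted p under 0.05. The share of all genes with an unadjusted p under 0.05 was not counted. Such counts, here and for the gene lists below, are therefore descriptions without a background. Calls over all genes went down in the same fits, to 261 to 882, against 1849 with all libraries.

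**Figure D2:**
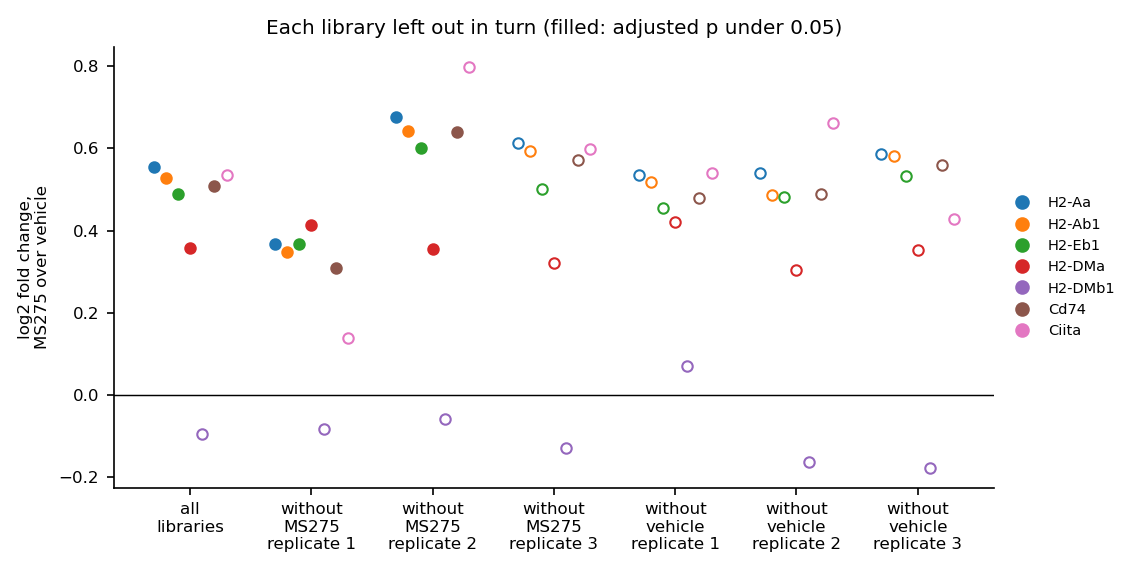
Log2 fold change (MS275 over vehicle, vertical axis) of the 7 genes with all RNA libraries and with each library left out in turn (horizontal axis), filled where edgeR's adjusted p was under 0.05. The 5 genes that rose stay between 0.30 and 0.68, and H2-DMb1 crosses 0 without vehicle replicate 1.

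Other class II loci were near the limit of detection. H2-DMb2, the second DM beta gene, had 1.17, 0.819 and 0.319 CPM with MS275, against 0.525, 0.442 and 0.53 CPM with vehicle (log2 fold change 0.67, SE 0.40, adjusted p = 0.305 in edgeR). H2-Ob, the beta chain of the DM inhibitor DO, had 0.836, 0.4 and 0.319 CPM with MS275, against 0.372, 0.377 and 0.278 CPM with vehicle (0.60, SE 0.40, adjusted p = 0.35 in edgeR). H2-Oa, the alpha chain of DO, and H2-Eb2 did not pass the filter, at no more than 0.46 CPM in any library. Of the 2 loci tested, 0 passed in edgeR, DESeq2 or limma voom, and 0 had an unadjusted p under 0.05.

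The factors that hold CIITA on the promoter did not rise with the class II genes. Of 7 genes, 0 passed in edgeR, DESeq2 or limma voom, 3 had an unadjusted p under 0.05, and the median log2 fold change was -0.135. Among the RFX subunits, which bind the X box, the log2 fold changes were -0.02 (SE 0.11) for Rfx5, -0.13 (SE 0.088) for Rfxap and 0.16 (SE 0.092) for Rfxank. Nfya, the subunit of NF-Y that contacts the CCAAT sequence, had 22.0, 18.5 and 19.5 CPM with MS275, against 23.6, 25.05 and 22.2 CPM with vehicle. Its MS275 libraries lay below the vehicle libraries, as did those of 17.9% of all genes tested. The difference did not pass (log2 fold change -0.24, SE 0.081, adjusted p = 0.0871 in edgeR). Creb1, which binds the cAMP response element, had a log2 fold change of -0.20 (SE 0.084, adjusted p = 0.147 in edgeR).

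Of 8 tested genes of interferon-gamma signalling, 1 rose and 1 fell, where 5.1% of all genes tested were called higher and 5.89% lower. With so few genes these counts are a description. Irf1, a transcription factor that interferon-gamma induces and that binds a Ciita promoter, rose: it had 19.4, 20.0 and 20.0 CPM with MS275, against 14.6, 15.2 and 15.2 CPM with vehicle. These groups were tight and did not overlap (log2 fold change 0.40, SE 0.061, adjusted p = 0.0068 in edgeR), and Irf1 passed with any 1 library left out. Jak2, a kinase of the interferon-gamma receptor, fell: it had 23.0, 26.9 and 20.3 CPM with MS275, against 32.001, 33.8 and 31.5 CPM with vehicle (-0.47, SE 0.092, adjusted p = 0.0158 in edgeR). Its adjusted p was 0.0655 without vehicle replicate 1 and 0.082 without vehicle replicate 2. The receptor genes Ifngr1 and Ifngr2 had log2 fold changes of -0.03 (SE 0.074) and 0.01 (SE 0.047). Ifng itself was at 0 counts in 5 of 6 libraries and at 0.116 CPM in MS275 replicate 3.

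Endosomal proteases cut the invariant chain and the antigen. Of 8 genes of processing and turnover, 3 rose and 1 fell, where 5.1% of all genes tested were called higher and 5.89% lower. The median log2 fold change of the 8 was 0.175. Ctsl, cathepsin L, rose: it had 1189, 1201 and 1116 CPM with MS275, against 914.9, 949.0 and 947.4 CPM with vehicle (log2 fold change 0.32, SE 0.042, adjusted p = 0.00373 in edgeR), and it passed with any 1 library left out. The lysosomal proteases Ctsd (0.18, SE 0.046) and Ctsb (0.14, SE 0.038) rose too, but Ctsd did not pass without MS275 replicate 3 or any 1 vehicle library, and Ctsb did not pass without MS275 replicate 2 or 3 or any 1 vehicle library. With all libraries kept, the adjusted p of Ctsb was 0.0832 in edgeR with no filter and 0.0595 with the replicate number as a block. Ctss, cathepsin S, the main protease of the invariant chain in dendritic cells and B cells, had 18.2, 11.5 and 15.5 CPM with MS275, against 12.9, 12.2 and 15.1 CPM with vehicle, which overlapped (0.17, SE 0.15, adjusted p = 0.497 in edgeR). Ifi30, a lysosomal thiol reductase that unfolds antigens, had 12.6, 9.96 and 10.02 CPM with MS275, against 9.08, 8.21 and 8.68 CPM with vehicle, without overlap but not past the test (0.33, SE 0.11, adjusted p = 0.0763 in edgeR).

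Ubiquitin ligases of the MARCH family remove class II from the surface. March1, the ligase of dendritic cells and B cells, had a log2 fold change of -0.05 (SE 0.18, adjusted p = 0.879 in edgeR). March8, which is expressed more widely, fell: it had 45.9, 44.8 and 41.1 CPM with MS275, against 54.6, 51.2 and 50.005 CPM with vehicle (-0.24, SE 0.056, adjusted p = 0.0276 in edgeR). It did not pass without MS275 replicate 3 or any 1 vehicle library, with adjusted p from 0.0607 to 0.13.

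Of 6 tested costimulatory and checkpoint ligands, which T cells read beside class II, 0 passed in edgeR, DESeq2 or limma voom, and 3 had an unadjusted p under 0.05. All 6 had positive log2 fold changes, with a median of 0.47. Cd40, the receptor through which T cells license antigen-presenting cells, had 0.397, 0.291 and 0.319 CPM with MS275, against 0.153, 0.164 and 0.151 CPM with vehicle. The groups did not overlap at these low levels (1.08, SE 0.36, adjusted p = 0.0813 in edgeR). Cd86 had 1.55, 1.02 and 0.608 CPM with MS275, against 0.831, 0.803 and 0.757 CPM with vehicle, which overlapped.

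**Figure D3:**
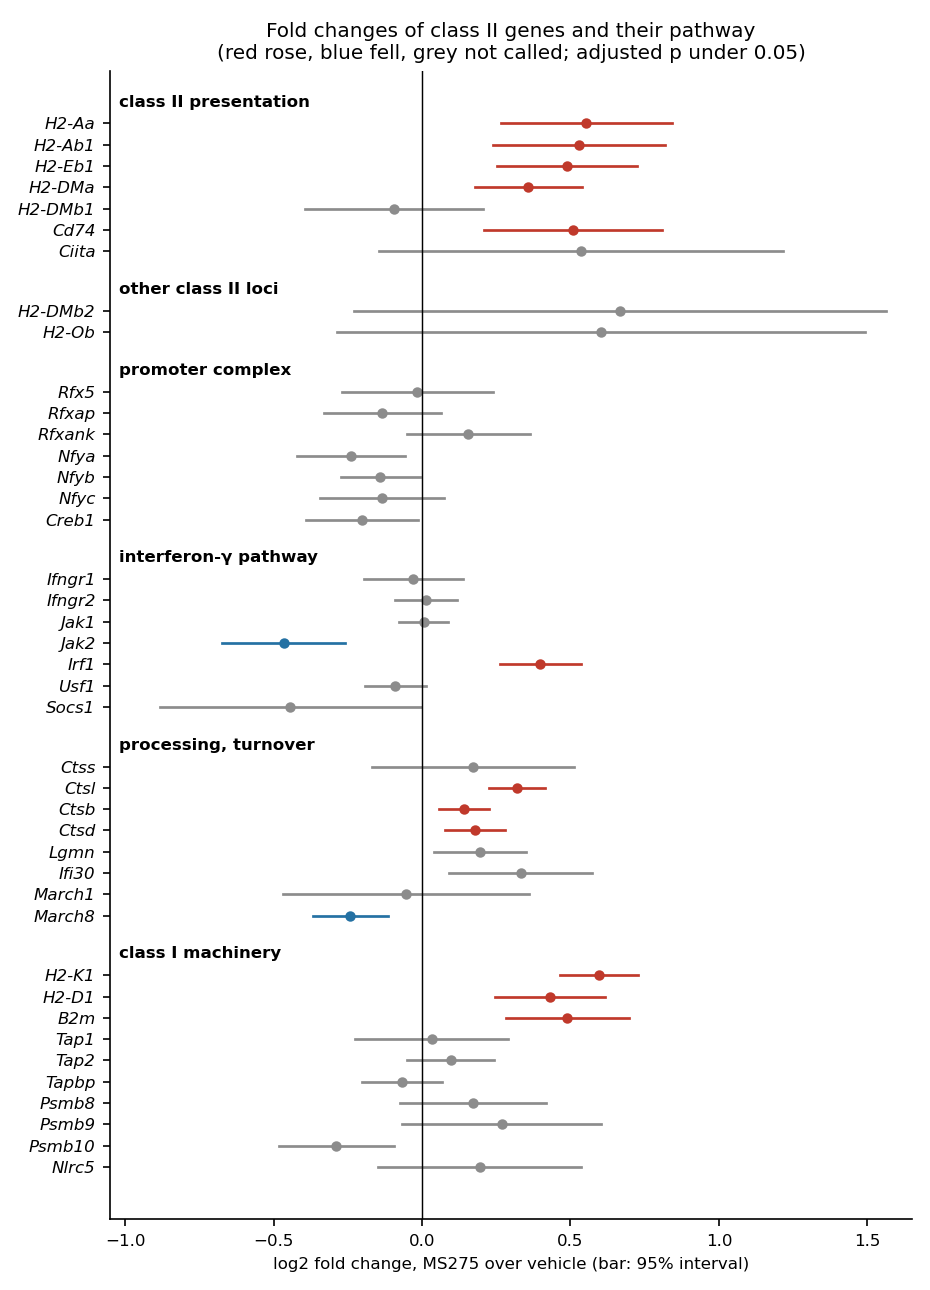
Log2 fold changes (MS275 over vehicle, horizontal axis) of the 7 class II genes and of genes of their pathway and of the class I machinery, with 95% intervals not adjusted for the number of genes; red genes rose, blue genes fell and grey ones did not pass. The class II chain genes and Cd74 lie near 0.5, while the promoter factors lie between -0.24 and 0.16.

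Class II was set beside class I presentation, which shows peptides from the cytosol to CD8 T cells. Of 10 class I genes, 3 rose and 0 fell, where 5.1% of all genes tested were called higher and 5.89% lower. Those that rose were the heavy chains H2-K1 (log2 fold change 0.60, SE 0.059) and H2-D1 (0.43, SE 0.083) and their light chain B2m (0.49, SE 0.092). H2-D1 and B2m did not pass without vehicle replicate 1 or 2. The peptide transporter genes Tap1 and Tap2 had log2 fold changes of 0.03 and 0.10. Nlrc5, the class I counterpart of Ciita, had 4.12, 5.41 and 3.94 CPM with MS275, against 3.57, 3.83 and 4.44 CPM with vehicle, which overlapped (0.19, SE 0.15, adjusted p = 0.437 in edgeR). Chain genes passed in both classes, and neither coactivator did. Of 20 type I interferon response genes, 5 rose and 0 fell, with a median log2 fold change of 0.50. Their count was 9 without MS275 replicate 1, 2 without MS275 replicate 3 and 1 without vehicle replicate 1 or 2.

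Cells that carry class II were followed by their markers. Of 14 macrophage markers 0 passed in edgeR, DESeq2 or limma voom and 1 had an unadjusted p under 0.05. They summed to 135.0, 112.5 and 110.6 CPM with MS275, against 116.5, 107.0 and 114.3 CPM with vehicle, which overlapped. For Csf1r, the receptor of the macrophage growth factor, the fitted difference was 0.05 on the log2 scale (SE 0.069). The 7 class II genes together gave 1.48, 1.29 and 1.44 reads per read of the macrophage markers with MS275, against 1.03, 1.09 and 1.11 with vehicle. This ratio was higher in every MS275 library than in any vehicle library, also with MS275 replicate 1 set aside. It was not tested, and it restates the class II rise beside macrophage sums that overlapped, so it is no separate result.

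Dendritic cell markers summed to 40.6 to 41.7 CPM with MS275 and 39.6 to 40.9 CPM with vehicle. Most of it was Flt3, a growth factor receptor of dendritic cells and progenitors, and Zbtb46, a transcription factor of classical dendritic cells. The sum therefore mainly follows these 2 genes and says little about the other markers. Whether dendritic cells were the source of the Flt3 and Zbtb46 reads was not tested. Of 9 tested, 2 rose and 0 fell, where 5.1% of all genes tested were called higher and 5.89% lower. The log2 fold change was above 0 for 7 of the 9, with a median of 0.158. Itgax had 1.36, 0.91 and 1.16 CPM with MS275, against 0.503, 0.704 and 0.782 CPM with vehicle. These groups did not overlap, but the difference did not pass (log2 fold change 0.78, SE 0.26, adjusted p = 0.081 in edgeR). Zbtb46 had 11.3, 12.6 and 10.6 CPM with MS275, against 13.9, 12.8 and 13.8 CPM with vehicle. The MS275 libraries lay below the vehicle libraries, as in 17.9% of all genes tested. This difference did not pass (log2 fold change -0.23, SE 0.083, adjusted p = 0.108 in edgeR). Flt3 had 23.7, 23.99 and 26.8 CPM with MS275, against 22.9, 24.7 and 23.1 CPM with vehicle, which overlapped. Ccr7, the receptor that leads dendritic cells to lymph nodes and that some T cells carry, had 0.46, 0.382 and 0.492 CPM with MS275, against 0.087, 0.098 and 0.151 CPM with vehicle (log2 fold change 1.98, SE 0.38, adjusted p = 0.0139 in edgeR). Siglech, a marker of plasmacytoid dendritic cells and also of microglia, had 0.94, 0.601 and 0.637 CPM with MS275, against 0.241, 0.36 and 0.353 CPM with vehicle (1.18, SE 0.31, adjusted p = 0.0408 in edgeR). Both were below 1 CPM in every library, DESeq2 gave neither an adjusted p, and without vehicle replicate 1 or 2 neither passed. Siglech also did not pass without vehicle replicate 3 or without MS275 replicate 1 or 3.

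B cell markers summed to 37.5, 32.4 and 30.7 CPM with MS275, against 28.4, 34.8 and 33.5 CPM with vehicle, most of it Ighm. Cd79b, Ms4a1 and Cd22 were each highest in MS275 replicate 1, where Ms4a1, a B cell surface protein, had 1.23 CPM, against 0.146 and 0.087 CPM in the other MS275 libraries and 0.219 to 0.429 CPM with vehicle. T and NK cell markers summed to 3.36 to 4.68 CPM with MS275 and to at most 3.73 CPM with vehicle, and Cd3e was at 0 in MS275 replicate 3 and vehicle replicate 3. Of 6 B cell and 3 T and NK cell markers tested, 0 passed in edgeR, DESeq2 or limma voom, and 0 had an unadjusted p under 0.05. Of 9 neutrophil markers 0 passed in these tools, and 3 had an unadjusted p under 0.05, but without MS275 replicate 2, where 10 could be tested, 9 passed in edgeR. That library had the lowest neutrophil sum of the MS275 libraries. Without MS275 replicate 1 the same 5 class II genes passed. The log2 fold changes of H2-Aa, H2-Ab1, H2-Eb1 and Cd74 were then 0.31 to 0.37, against 0.49 to 0.55 with all libraries. The part that B cell and neutrophil transcripts of MS275 replicate 1 have in its high class II levels was not tested.

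Vessel, glial and muscle markers moved too, where 5.1% of all genes tested were called higher and 5.89% lower. Of 8 endothelial markers 3 rose and 0 fell, with sums of 143.3 to 165.2 CPM with MS275 and 118.2 to 132.4 CPM with vehicle. Without MS275 replicate 3, vehicle replicate 1 or vehicle replicate 2, 0 of them passed in edgeR, and without vehicle replicate 3 the count was 1. Endothelial cells can carry class II, and the part of this rise in the class II result was not tested. Of 8 satellite glial markers 3 rose and 3 fell, of 10 sensory neuron markers 1 rose, of 10 skeletal muscle markers 9 rose, and of 8 myelinating Schwann cell markers 0 passed in edgeR, DESeq2 or limma voom, with 0 at an unadjusted p under 0.05. Without vehicle replicate 1 or 2, 0 muscle markers passed, and without MS275 replicate 1 the count was 4. Muscle sums were higher in every MS275 library than in any vehicle library, so this tissue difference cannot be told apart from treatment. The part of muscle transcripts in the class II result was not tested.

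**Figure D4:**
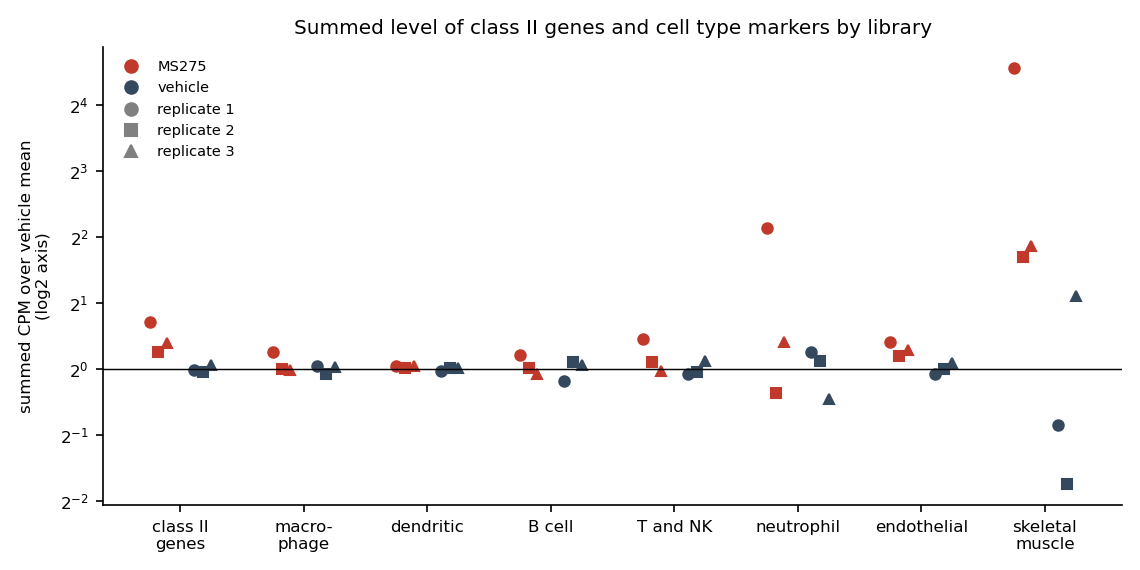
Summed CPM of the 7 class II genes and of 7 marker lists in each RNA library, divided by the mean of the vehicle libraries (log2 axis), with MS275 libraries left of vehicle libraries in each column. Class II sums are 144.7 to 199.6 CPM with MS275 and 117.1 to 126.7 CPM with vehicle, and MS275 replicate 1 is highest for neutrophil and muscle markers. The dendritic sums are mostly Flt3 and Zbtb46.

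The 5 genes outside the set with profiles nearest to the mean class II profile over the 6 RNA libraries were Nmral1, Cst3, Pecam1, Usp2 and Rpl35a. Likeness was the root mean square difference of centred log2 CPM, which was 0.028 to 0.047 for these genes. H2-Aa, H2-Ab1, H2-Eb1 and Cd74 lay 0.074 to 0.094 from that mean, H2-DMa 0.185, Ciita 0.242 and H2-DMb1 0.302. The mean profile was thus a compromise: the class II chain genes and Cd74 resembled one another, and the other 3 differed from them in ways of their own. With 6 libraries, many genes lie near any such profile.

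ATAC regions were counted where they overlapped a gene or the 1000 bp beyond either end of it (mm10 coordinates). Merged within each list there were 161788 regions with MS275 and 177906 with vehicle. Of protein-coding genes, 37.2% had fewer regions in the MS275 list and 20.4% had more. Among the class II genes all but H2-Aa, with 1 region in each list, had fewer. MS275 and vehicle numbers were 3 and 4 at H2-Ab1, 4 and 7 at H2-Eb1, and 6 and 8 at H2-DMa. They were 0 and 1 at H2-DMb1, 0 and 4 at Cd74, and 9 and 11 at Ciita. The 7 genes had 23 regions in the MS275 list and 36 in the vehicle list. Of these, 15 of the 23 with MS275 and 16 of the 36 with vehicle overlapped a region of the other list, as did 52.8% of all regions with MS275 and 47.5% of all with vehicle. Each list combines its replicates, so no test of a difference is possible, and scores are the authors' own, comparable only within a list. Of the 7 genes, 5 had a region in the MS275 list, where 76.7% of protein-coding genes had one, and 7 in the vehicle list, where 77.5% had one.

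At H2-Aa (chromosome 17, 34282744 to 34287823) the start of the gene was covered by a region in both lists, from 34287656 to 34288052 with MS275 and from 34287657 to 34288017 with vehicle. Both span the cAMP response element and Y box printed above. At H2-Eb1 (34305867 to 34316674), regions from 34305662 to 34306358 with MS275 and from 34305641 to 34306300 with vehicle covered the start and its X and Y boxes. H2-Eb1 also had a region inside the gene, which began 3793 bp after the start with MS275 and 3870 bp after it with vehicle and ran from 34309660 to 34310288 with MS275 and from 34309737 to 34310046 with vehicle. It was the region with the highest score at this gene in each list, with a -log10 q of 17.96 in the MS275 list and 14.8 in the vehicle list. At H2-Ab1 (34263227 to 34269418), regions from 34263045 to 34263505 with MS275 and from 34263043 to 34263751 with vehicle covered the lower-coordinate end of the gene.

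H2-DMb1 (34153191 to 34160229) had no region in the MS275 list. In the vehicle list a region from 34152994 to 34153620, with a -log10 q of 7.86, covered its start and the X and Y boxes. H2-DMa (34119693 to 34139101) had 6 regions in the MS275 list and 8 in the vehicle list. Of these, 3 with MS275 and 4 with vehicle also lie on Brd2. Its highest scoring region was inside this gene record and clear of Brd2, from 34135257 to 34135968 with MS275 and from 34135245 to 34135946 with vehicle. It had a -log10 q of 56.0 in the MS275 list and 87.0 in the vehicle list. This region covered neither of the 2 starts read, and whether it covers another start of H2-DMa is not known.

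Cd74 (chromosome 18, 60803849 to 60812652) had no region in the MS275 list and 4 in the vehicle list, all of low score, with a -log10 q of 0.966 to 1.76. Ciita (chromosome 16, 10480014 to 10531064) had 9 regions in the MS275 list and 11 in the vehicle list, with a -log10 q of at most 4.17 and 6.07. So the regions absent from the MS275 list at H2-DMb1 and Cd74 lay at one gene whose RNA was not called and at one whose RNA rose. With a -log10 q of at least 5, the 7 genes had 8 regions in the MS275 list and 11 in the vehicle list, at 3 genes with MS275 and 6 with vehicle. At that threshold the whole lists held 32235 regions with MS275 and 45078 with vehicle, and 63.5% of protein-coding genes had a region with MS275 and 67.2% with vehicle. The MS275 region over the H2-Aa start, with a -log10 q of 4.17, was among those below that threshold.

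**Figure D5:**
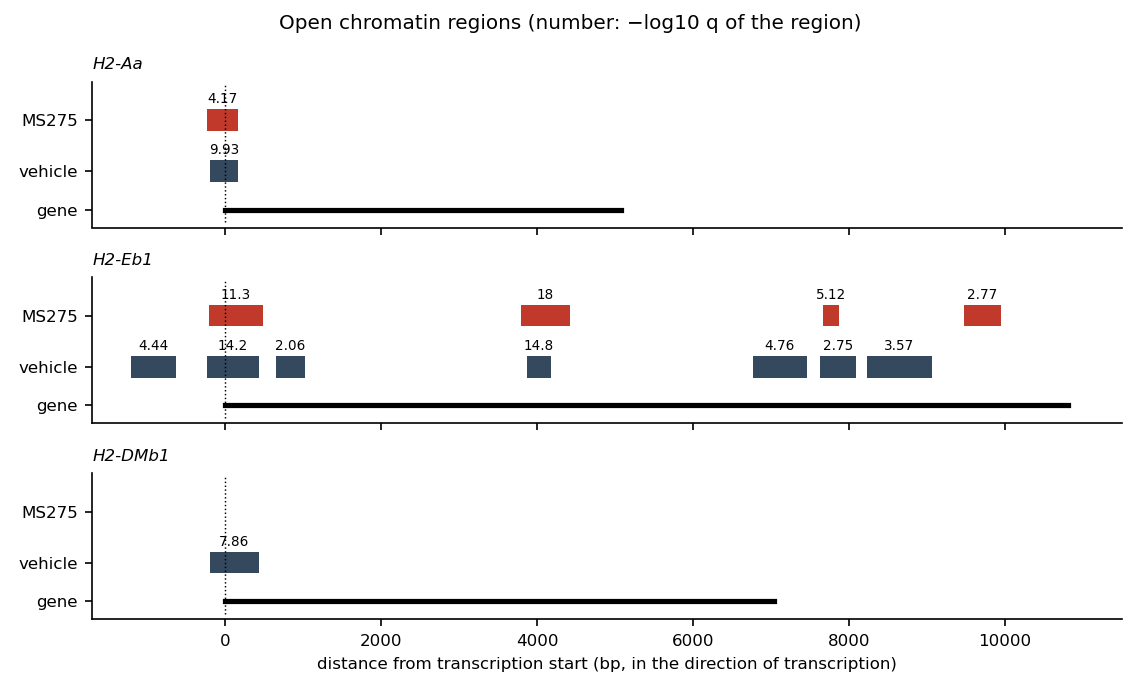
Open chromatin regions (bars) of the MS275 and vehicle lists at H2-Aa, H2-Eb1 and H2-DMb1, by distance in bp from the transcription start, with the -log10 q of each region above it and the gene as a black line. Regions sit over the start of H2-Aa and H2-Eb1 in both lists, and over that of H2-DMb1 in the vehicle list.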

How the data were processed

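Symbols matched the deposited count files directly. The RNA files hold raw read counts per gene symbol, deposited by the authors without normalisation. The submitters' processing notes name mm10 as the build and STAR 2.7.0, edgeR 3.24.3 and limma 3.38.3 among the tools. Which program counted the reads, and whether by strand, is not stated in the labels. In each file 5 rows without a gene name held 18.89% to 20.56% of reads and stayed out. The ATAC files deposited by the authors are region lists of combined replicates with a score, a fold enrichment ratio, -log10 q and a summit offset, per the file layout. Their depth is not known.

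The test was that of edgeR 4.0.16 under R 4.3.3 (TMM, filterByExpr, quasi-likelihood test, 2-sided, Benjamini-Hochberg over 16819 of 44345 genes, called at an adjusted p under 0.05), and treatment alone was modelled. SE is the log2 fold change over the square root of F, CPM use the normalised library sizes, and log2 CPM a prior count of 2. The fit was tested on simulated data. DESeq2 1.42.0 and limma 3.58.1 were alternatives, with another normalisation, no filter, the replicate number as a block and each library left out. Triplicates are biological per the series' design text. No libraries of a group agreed within sampling noise.

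Overlapping ATAC entries were merged within a list, and regions of different lists sharing at least 1 bp were counted as overlapping. Gene positions came from a RefSeq table of GRCm38.p6, the assembly of mm10. The genes and lists were chosen with earlier results of these data known. Genes named outside the set are the called genes of each list, pathway partners, and the 5 nearest profiles with a mean log2 CPM of at least 1. Cd40, Cd86, Ctss, Ifi30, Tap1, Tap2, Csf1r, Itgax, Flt3, Zbtb46 and the B cell and T cell genes were chosen after their values were seen. Called interferon, glial, muscle, endothelial and neuronal genes are given as counts. Some genes of the lists are not reported here by name.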

Additional observations from a re-analysis of the deposited data

How the results depend on the processing

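Ciita and the minor class II loci rest on few reads, and the spread of Ciita between libraries was wide (biological coefficient of variation 24.8%, against a common value of 8.62% over all genes). H2-Aa, H2-Ab1, H2-Eb1, H2-DMa and Cd74 kept their direction in every alternative run, and their calls in every one that kept all libraries except Cd74 in DESeq2 (log2 fold change 0.51, adjusted p = 0.0605). With libraries left out one at a time their log2 fold changes ranged from 0.37 to 0.68 for H2-Aa, 0.35 to 0.64 for H2-Ab1, 0.37 to 0.60 for H2-Eb1, 0.30 to 0.42 for H2-DMa and 0.31 to 0.64 for Cd74, and the number of class II genes called from 0 to 5. H2-DMb1 ranged from -0.18 to 0.07, the 0.0717 without vehicle replicate 1 being its one positive value. Over the same fits genes called higher ranged from 1 to 3 for class I, 1 to 9 for type I interferon, 1 to 4 for processing, 0 to 1 for costimulation, 0 to 3 for dendritic, endothelial and sensory neuron markers, 1 to 3 for satellite glia, 0 to 1 for Schwann cells, 0 to 9 for neutrophils and 0 to 10 for muscle. Genes called lower ranged from 0 to 1 for processing, promoter factors and dendritic markers, 0 to 2 for the interferon-gamma genes and 1 to 3 for satellite glia.

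Same-numbered libraries deviated from their group means with correlations of 0.019, 0.111 and -0.061, so the numbers were not taken as pairs. With the replicate number as a block, 1 promoter factor and 1 class I gene were called lower, and 10 type I interferon genes, 1 dendritic and 3 sensory neuron markers higher; the block changed no class II call. DESeq2 called 5 processing genes, 8 type I interferon genes, 3 sensory neuron and 0 dendritic markers higher and 1 class I gene lower. With no filter beyond 1 count, 10 type I interferon genes, 6 neutrophil and 2 sensory neuron markers were higher and 1 class I gene lower. Another normalisation gave 2 sensory neuron markers, and limma voom 2 sensory neuron and 0 muscle markers. With a -log10 q of at least 5 the class II genes had 8 regions at 3 genes in the MS275 list, 7 of them shared, and 11 in the vehicle list, 8 of them shared, against 15 of 23 with MS275 and 16 of 36 with vehicle at the authors' threshold; of all regions at that stricter threshold 75.6% with MS275 and 53.9% with vehicle were shared. The cause of these shifts was not tested.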
